A study of Mus musculus with 80 samples.

Results

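The genes described here belong to the citrate cycle, fatty acid oxidation and the peroxisome: 45 genes of the 7151 measured in mouse lung. The rule took gene symbols, among array spots with 1 symbol in the platform annotation. It used no measured value except that each gene was represented by its brightest spot over all mice, and it was proposed with earlier results of these data known. The 45 genes had 61 spots among 9663 single-symbol spots, with 1 spot for 33 genes and several for 12. The lungs came from 40 C57BL/6 mice on regular feed, in 4 age groups of 5 males and 5 females each. The youngest group was 17 to 44 days old, the next was 169 to 194 days, the third was 476 to 499 days and the oldest was 704 to 743 days. No treatment or engineered allele is named in the labels, so the groups differ in age and sex. The series was set up to compare mice by those features. Each mouse gave 2 arrays, 1 for each table of spots, hybridised with radioactively labelled cDNA.

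Levels are z scores: the deposited values were centred at 0 and scaled to an SD of 1 within each array, so a level places a spot among the others of its array and a difference is in z units, not a fold. How many arrays there are limits the precision. Whole lung was measured, so fewer cells of a type and less RNA per cell cannot be told apart. Of the markers listed for lung epithelium, 3 of 10 were measured (Sftpd, Cbr2 and Slc34a2), and their summed level ran from 1.29 to 2.87 z over the 40 mice. None of 8 fat markers and none of 10 heart and muscle markers was measured. The females of 712 and 704 days had the lowest correlations with their group on table A, 0.869 and 0.885.

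In mitochondria, the pyruvate dehydrogenase complex turns pyruvate into acetyl-CoA, which the citrate cycle oxidises to carbon dioxide while filling electron carriers for respiration. Fatty acids are activated by acyl-CoA synthetases, brought into mitochondria as carnitine esters and shortened by beta oxidation. Peroxisomes, built and supplied by the peroxins (Pex proteins), shorten very long and branched fatty acids and make ether lipid precursors. In lung, fatty acid metabolism is best known from the alveolar type II cell, which makes surfactant lipid, and milk gives the suckling mouse a diet rich in fat until weaning.

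Promoter sequence is shown for the 3 genes with matched entries among the 4 whose level passed the test within the youngest mice, because they differed in opposite directions there. RefSeq promoters (build GRCm38.p6, the 250 bases before the start of the gene, on the gene's strand, 5′ to 3′) were matched for 39 of the 45 genes. Capitals mark CCAAT boxes and GC boxes on either strand (CCAAT or ATTGG, and GGGCGG or CCGCCC). Acadl lies on chr1:66863310-66863559 (minus strand), Acad11 on chr9:104063474-104063723 (plus strand) and Pex6 on chr17:46711226-46711475 (plus strand).
Acadl: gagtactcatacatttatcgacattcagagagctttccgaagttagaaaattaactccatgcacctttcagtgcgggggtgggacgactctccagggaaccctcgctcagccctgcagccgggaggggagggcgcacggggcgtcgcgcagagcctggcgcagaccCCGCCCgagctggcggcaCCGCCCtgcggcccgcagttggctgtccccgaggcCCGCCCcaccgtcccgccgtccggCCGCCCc
Acad11: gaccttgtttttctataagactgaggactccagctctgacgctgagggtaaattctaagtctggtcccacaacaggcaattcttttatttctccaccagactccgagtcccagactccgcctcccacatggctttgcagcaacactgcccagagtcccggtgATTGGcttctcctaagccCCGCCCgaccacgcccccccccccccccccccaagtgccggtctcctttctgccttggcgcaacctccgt
Pex6: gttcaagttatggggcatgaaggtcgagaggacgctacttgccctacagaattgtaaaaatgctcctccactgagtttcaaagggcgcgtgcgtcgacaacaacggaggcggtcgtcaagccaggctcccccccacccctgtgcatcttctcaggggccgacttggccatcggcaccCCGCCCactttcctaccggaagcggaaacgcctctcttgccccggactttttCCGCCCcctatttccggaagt
Acadl had 4 GC boxes and no CCAAT box, Acad11 had 1 of each, and Pex6 had 2 GC boxes. The GC content of these windows was 68.0%, 58.4% and 58.8%. GC boxes were present in 29 of the 39 genes (74.4%), against 35.4% of 27025 RefSeq genes with windows of this length, not only the measured ones. A gene counted if any of its windows matched. The median GC content was 59.6%, against 52.4% over all 32851 windows. CCAAT was present in 14 (35.9%, against 37.5%). The hexamer AGGTCA, bound by nuclear receptors, occurred in 5 (Acadm, Acadvl, Echs1, Fh1 and Sucla2; 12.8%, against 15.8%), and it is a part of both longer elements that follow. The estrogen-related receptor element TCAAGGTCA (0.422% of the 27025 genes) had no match in the 39 genes. Nor did the PPAR-type element (0.0407%), a direct repeat of AGGTCA with 1 base N between the copies. TATAAA occurred in 1 gene, Pex16 (2.56%, against 14.3%). All motifs were searched on both strands, and a match describes letters only.

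Over the 40 mice the 45 genes had mean levels from -1.42 to 1.495 z with a median of 0.14 z. All 7151 genes ran from -3.81 to 3.75 z with a median of 0.04 z. The spots with the highest means were those of Pex19, which carries membrane proteins to the peroxisome, Idh2, the mitochondrial NADP-dependent isocitrate dehydrogenase, Ogdh, a subunit of 2-oxoglutarate dehydrogenase, Mdh1, the cytosolic malate dehydrogenase, and Acadl, the long-chain acyl-CoA dehydrogenase. The lowest were those of Idh3b, Acadm, Pdhx, Aco1 and Pex2. Spots differ in their probes, so this order is not an order of transcript amounts. The SD between mice within a sex and age group had a median of 0.168 z over the 45 genes, from 0.094 z to 0.553 z for Acadl, and a median of 0.188 z over all genes.

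**Figure D1:**
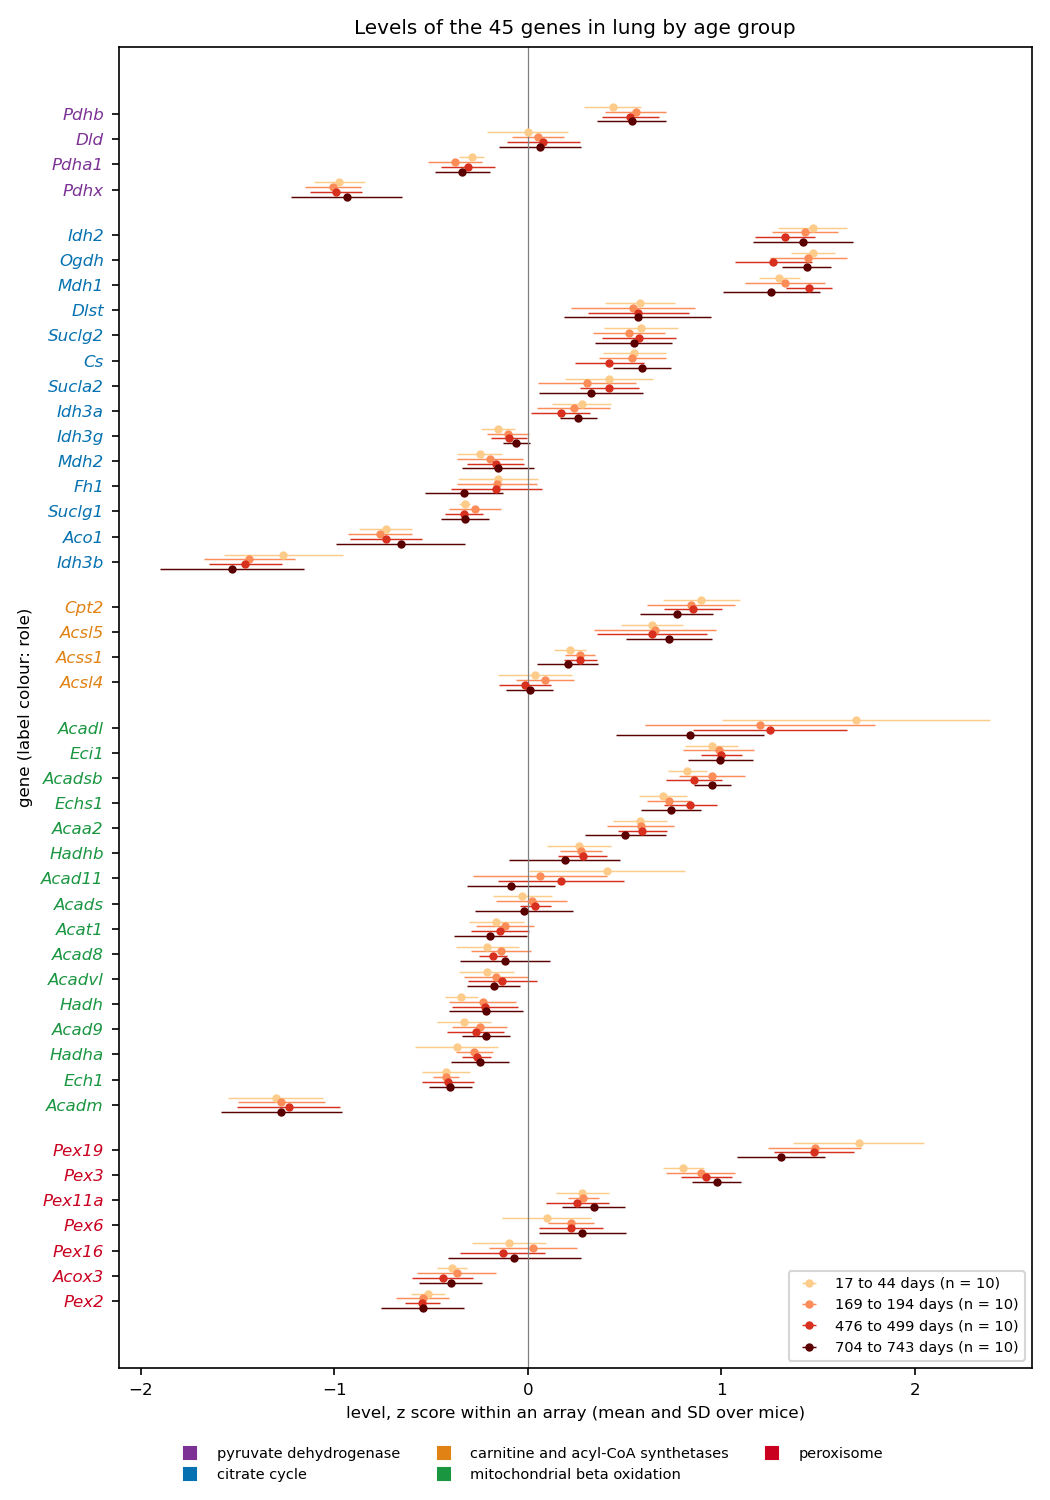
Levels of the 45 genes by role and age group; the x axis is the z score within an array, points are means and bars are SDs over 10 mice. Acadl, Acad11 and Pex19 lay highest in the youngest group, and Pex3 and Idh3g had their highest means in the oldest group.

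With age taken as a slope over all 40 mice, none of the 45 genes passed the test (limma with Benjamini-Hochberg adjustment over all 16896 spots, threshold 0.05), and 0.028% of all genes did. At an unadjusted p under 0.05, 2 genes were higher with age, Pex3 and Pex6, and 4 were lower, Acadl, Pex19, Acad11 and Idh3b. That is 6 of 45, beside 15.5% of all genes (5.13% higher and 10.4% lower), so the share lay near the background. Slopes were positive for 24 genes and negative for 21, with a median of 0.0003 z per 100 days, and for 55.4% of all genes with a median of 0.0019 z. The spots of 1 block and print column moved together across arrays, a layout read from the data. Values were therefore also corrected by the median deviation of each block and column on each array. After that correction 14 of 45 slopes were positive (31.1%, against 49.2% of all genes), none was higher at an unadjusted p under 0.05 (4.89% of all genes) and 5 were lower (7.45%).

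**Figure D2:**
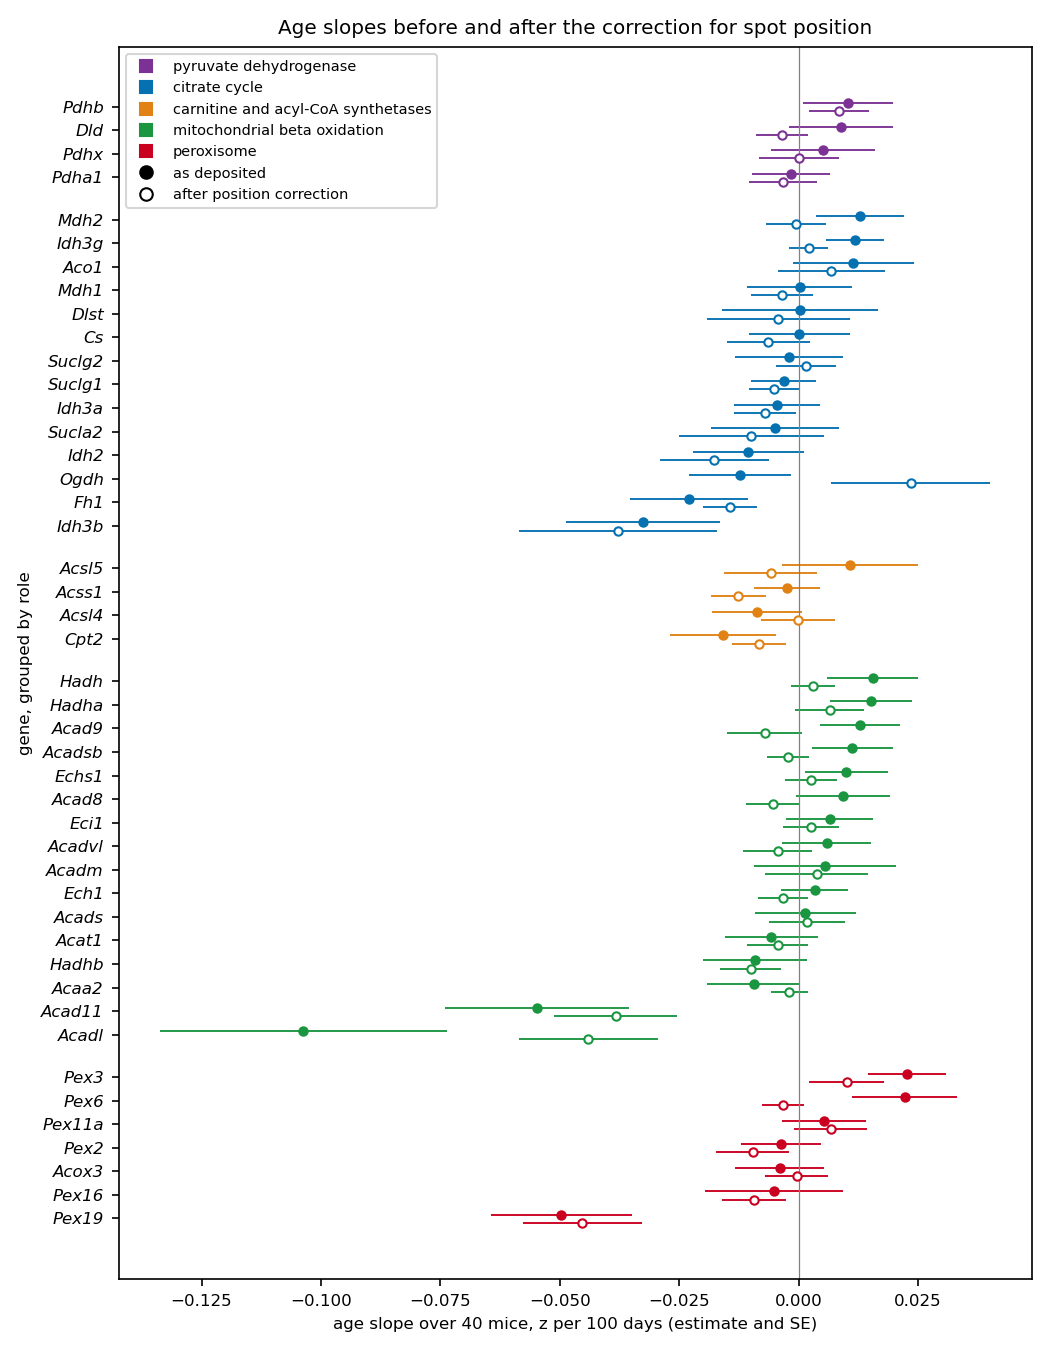
Age slope of each gene over 40 mice in z per 100 days, with its SE, from the values as deposited (filled) and after the correction for spot position (open). Acadl, Acad11 and Pex19 had the lowest slopes on both scales, -0.104, -0.0548 and -0.0497 z as deposited, while the slope of Pex6 went from 0.0222 to -0.0033 z.

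Of the 4 pyruvate dehydrogenase genes (Dld, Pdha1, Pdhb, Pdhx), none passed the test in any of the 7 comparisons. Their slopes over 40 mice ran from -0.0016 to 0.0103 z per 100 days. Pdhb, the beta subunit of the first enzyme, had means of 0.440 ± 0.147, 0.557 ± 0.157, 0.531 ± 0.148 and 0.537 ± 0.177 z from the youngest to the oldest group (SD, n = 10). These means differed by less than their SDs.

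The 14 genes grouped by symbol as citrate cycle include the cytosolic enzymes Aco1 and Mdh1. Among the 14 genes 6 slopes were positive, with a median of -0.0025 z per 100 days, and none passed the test. Idh3b, a regulatory subunit of the NAD-dependent isocitrate dehydrogenase, had the lowest slope, -0.0326 z (SE 0.0161, adjusted p = 0.359). In its youngest group the values ran from -1.62 z over a median of -1.35 z to -0.53 z, and in the oldest from -2.09 z over -1.63 z to -0.84 z, so the groups overlapped. The other subunits of that enzyme had slopes of -0.0045 z (Idh3a) and 0.0118 z (Idh3g, adjusted p = 0.38). For Idh3g, 9 of the 10 oldest mice lay above the youngest median of -0.15 z and the last one equalled it, and 8 of the 10 lay within the youngest range. Fh1, fumarase, averaged -0.153, -0.160 and -0.163 z in the first 3 age groups and -0.329 ± 0.202 z in the oldest (SD, n = 10). From 169 to 194 to 704 to 743 days the difference was -0.169 z (SE 0.098, adjusted p = 0.999), smaller than the SD between mice. Ogdh averaged 1.48, 1.45, 1.27 and 1.44 z across the 4 groups, lowest at 476 to 499 days. Its slope went from -0.0122 to 0.0235 z per 100 days with the correction for spot position, with an unadjusted p of 0.26 and 0.166.

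The 4 genes of activation and carnitine transport (Acsl4, Acsl5, Acss1 and Cpt2) had slopes from -0.0158 to 0.0108 z per 100 days, and none passed the test. Cpt2, the inner-membrane carnitine palmitoyltransferase that releases acyl-CoA in the matrix, averaged 0.897 ± 0.198 z at 17 to 44 days and 0.769 ± 0.188 z at 704 to 743 days (SD, n = 10). Acsl5, a mitochondrial and ER acyl-CoA synthetase, averaged 0.644 ± 0.161 and 0.730 ± 0.221 z in the same groups.

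The 16 genes grouped by symbol as mitochondrial beta oxidation held the lowest slope of the 45 genes. Acadl, which starts the oxidation of long-chain acyl-CoA, had values from 0.75 z over a median of 1.73 z to 2.70 z at 17 to 44 days. At 169 to 194 days they ran from 0.39 z over 1.10 z to 2.12 z, at 476 to 499 days from 0.57 z over 1.33 z to 1.81 z, and at 704 to 743 days from 0.30 z over 0.78 z to 1.51 z. The 10 mice of the oldest group were all below the youngest median, and 5 of them below the lowest of the youngest. The slope was -0.104 z per 100 days (SE 0.0300, adjusted p = 0.0636), and -0.0440 z after the correction for spot position (adjusted p = 0.155). The second Acadl spot lies on table B, and its slope was 0.0131 z (SE 0.0087, adjusted p = 0.566) with a mean level of -0.757 z, so the spots of this gene differed in direction. Acad11, a dehydrogenase with a preference for very long acyl chains, had values from -0.36 z over 0.55 z to 0.88 z in the youngest group and from -0.42 z over -0.08 z to 0.29 z in the oldest. All 10 of the oldest lay below the youngest median, and the slope was -0.0548 z per 100 days (SE 0.0193, adjusted p = 0.135).

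The other 14 genes of this group, which was formed by symbol only and takes in Acad8, Acadsb and Acat1, had slopes from -0.0094 to 0.0155 z per 100 days. They include the trifunctional protein subunits Hadha (0.0151 z, adjusted p = 0.468) and Hadhb (-0.0092 z), the short- and medium-chain enzymes Acads and Acadm, and Acadvl, the very long-chain acyl-CoA dehydrogenase (0.0059 z). Between 169 to 194 and 704 to 743 days, 9 of the 16 genes had a positive difference, with a median of 0.001 z. After the correction for spot position 1 of 16 was positive (Eci1, an enoyl-CoA isomerase) and the median was -0.0285 z, beside 48.7% of all genes and a median of -0.0018 z. None of these corrected differences passed the test, and the lowest unadjusted p was 0.0702, that of Hadhb (-0.0937 z, SE 0.0502). With the same correction, 6 of the 16 slopes over 40 mice and 1 of the 16 adult slopes were positive. From 17 to 44 to 169 to 194 days 9 of 16 were, and from 17 to 21 to 33 to 44 days 7 of 16. The 16 genes share mice and arrays, so these counts are descriptions.

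Among the 7 peroxisome genes, Pex19 and Pex3 stood at opposite ends. Their products act together, since Pex3 is the membrane dock for Pex19 and its cargo. Pex19 had values from 1.22 z over a median of 1.74 z to 2.12 z at 17 to 44 days and from 0.85 z over 1.32 z to 1.67 z at 704 to 743 days. Each of the 10 oldest was below the median of the youngest. Its slope was -0.0497 z per 100 days (SE 0.0148, adjusted p = 0.0705), -0.0453 z after the correction for spot position (adjusted p = 0.0929), and its second spot had -0.0304 z (SE 0.0115, adjusted p = 0.174). Pex3 had values from 0.61 z over 0.81 z to 1.00 z in the youngest group and from 0.71 z over 1.02 z to 1.13 z in the oldest, with 9 of the 10 oldest above the youngest median. Its slope was 0.0227 z per 100 days (SE 0.0082, adjusted p = 0.148), and 0.0101 z after the correction for spot position. Pex6, an ATPase that recycles the import receptor, had a slope of 0.0222 z (SE 0.0110, adjusted p = 0.363), which took the opposite sign, -0.0033 z, after that correction. The remaining 4 (Acox3, Pex2, Pex11a and Pex16) had slopes between -0.0051 and 0.0053 z.

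With log2 of age in place of days, Acadl, Pex19 and Acad11 passed the test, at -0.174 z (SE 0.041, adjusted p = 0.00687), -0.084 z (SE 0.020, adjusted p = 0.00781) and -0.096 z (SE 0.027, adjusted p = 0.0192) per doubling of age. That is 3 of 45, beside 9.01% of all genes. When log2 of age was fitted after the correction for spot position, Pex19 (-0.081 z, adjusted p = 0.00443) and Acad11 (-0.063 z, adjusted p = 0.0375) passed, 2 of 45 beside 4.42% of all genes. Without the dimmest spots 2 of the 40 genes left passed (Acadl and Pex19, with 5% of all genes), and with array weights 4 of 45 (those and Acad11 and Pex3, with 9.84%). The title numbers run in 5 sets, each with 1 mouse of every sex and age group. With these sets as a block the slopes of Acadl (-0.103 z per 100 days, adjusted p = 0.0475) and Pex19 (-0.050 z, adjusted p = 0.0439) passed, 2 of 45 beside 2.91% of all genes.

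The youngest group spans the usual age of weaning, and its mice fall at 17 to 21 days (3 females, 2 males) and at 33 to 44 days (2 females, 3 males). Between these, with sex as a term, 4 of the 45 genes passed the test: Acadl, Pex19 and Acad11 were lower at 33 to 44 days and Pex6 was higher. That share lay near the 9.2% of all genes called (1.86% higher and 7.34% lower). At an unadjusted p under 0.05, 5 genes were higher and 4 lower, 9 of 45, beside 21% of all genes (8.42% higher and 12.6% lower). Acadl fell by 1.13 z, the largest difference among the 45.

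Acadl was at 2.51, 1.86, 1.88, 2.70 and 2.41 z in the female and male of 17 days, the female and male of 19 days and the female of 21 days. It was at 0.88, 1.60, 1.08, 0.75 and 1.31 z in the female of 33 days, the female and male of 40 days, the male of 43 days and the male of 44 days. The age sets did not overlap, and the difference was -1.13 z (SE 0.191, adjusted p = 0.0125). The second Acadl spot was at -0.92, -0.92, -0.83, -0.90 and -0.83 z and at -0.59, -0.98, -0.72, -0.93 and -0.67 z in the same mice, a difference of 0.106 z (SE 0.0896, adjusted p = 0.609) with overlapping sets.

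Pex19 was at 2.11, 1.83, 1.80, 2.12 and 2.09 z in the younger mice and at 1.22, 1.67, 1.45, 1.26 and 1.56 z in the older, in the same order. These sets did not overlap either, and the difference was -0.553 z (SE 0.111, adjusted p = 0.016). Its second spot was at -0.83, -0.54, -0.94, -0.42 and -0.67 z and at -0.56, -0.83, -0.69, -0.57 and -0.80 z, with a difference of -0.0442 z (SE 0.108, adjusted p = 0.897) and overlapping sets.

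Acad11, with 1 spot, was at 0.74, 0.55, 0.60, 0.88 and 0.81 z and then at -0.36, 0.55, -0.02, 0.10 and 0.23 z. The 40-day female equalled the 17-day male, and the other 4 older mice lay below all of the younger. The difference was -0.617 z (SE 0.147, adjusted p = 0.0269). Pex6, also with 1 spot, was at -0.19, -0.04, 0.04, -0.10 and -0.15 z and then at 0.42, 0.08, 0.45, 0.27 and 0.21 z. Its sets did not overlap, and the difference was 0.365 z (SE 0.0895, adjusted p = 0.0293). After the correction for spot position the Pex6 sets ran from 0.132 to 0.21 z and from 0.188 to 0.242 z, with overlap.

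**Figure D3:**
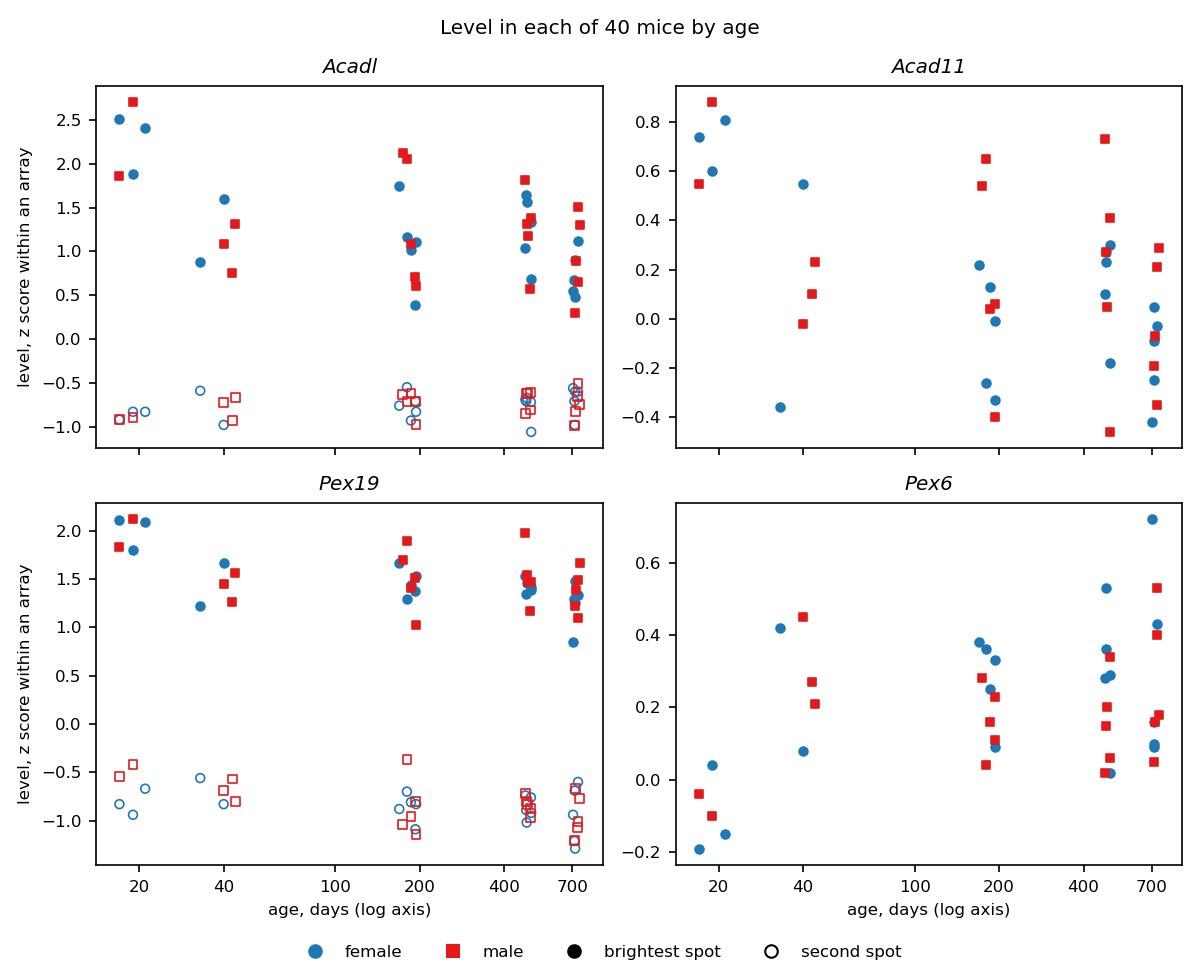
Level of Acadl, Acad11, Pex19 and Pex6 in each of the 40 mice against age in days on a log axis; filled points are the brightest spot, open points the second spot of Acadl and Pex19. In these values as deposited, the mice of 17 to 21 days lie apart from those of 33 to 44 days at the brightest spots of Acadl, Pex19 and Pex6. The second spots of Acadl and Pex19 overlap.

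The 23 other spots of the same block and column moved with several of these genes. Around Acadl all 23 were lower at 33 to 44 days, with a median difference of -0.783 z. Around Acad11 all 23 were lower (median -0.264 z), and around Pex6 none was lower (median 0.351 z). Around Pex19, 14 of 23 were lower, with a median of -0.0783 z. Across the 45 genes, the difference had the same sign as the median of those neighbours for 38 (84.4%, against 71.1% of all genes), with a Pearson correlation across genes of 0.859, against 0.684 over all genes. The genes share mice and arrays, so these are descriptions. After the correction for spot position the differences were -0.475 z for Pex19 (adjusted p = 0.0634), -0.365 z for Acadl (adjusted p = 0.0592), -0.367 z for Acad11 (adjusted p = 0.135) and 0.0213 z for Pex6 (adjusted p = 0.858), and none of the 45 genes passed, nor did any other (0% of all genes). Then 2 genes were higher at an unadjusted p under 0.05 (7.37% of all genes) and 5 lower (9.4%).

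**Figure D4:**
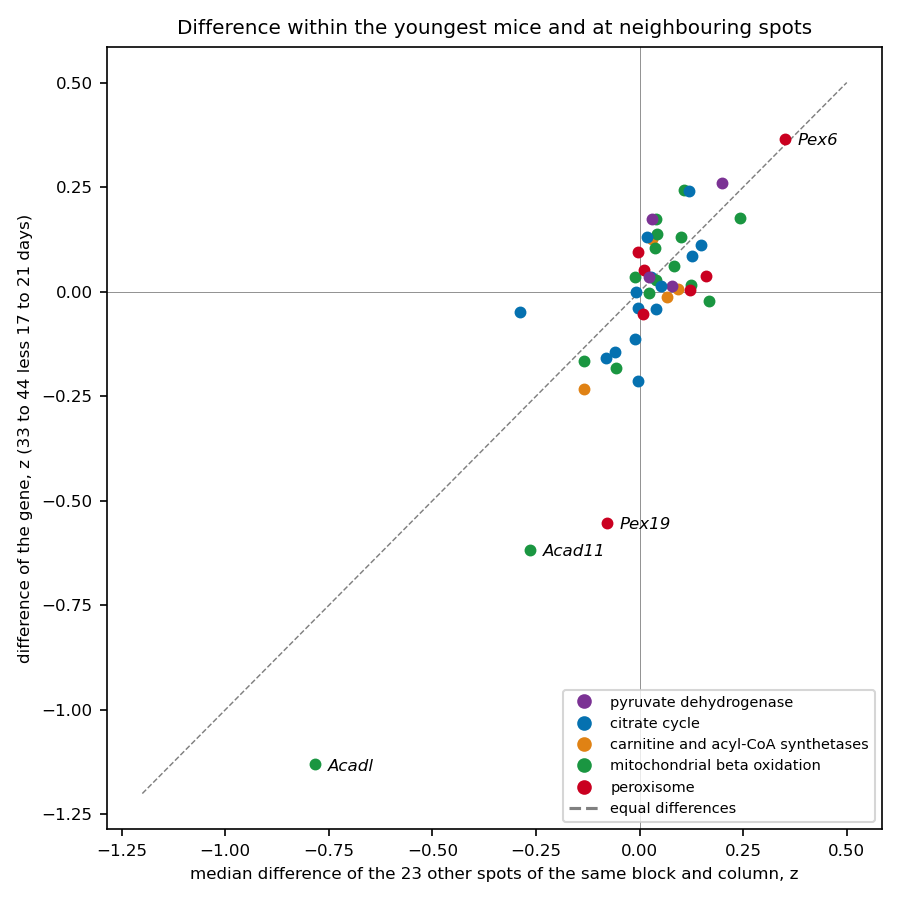
Difference between 33 to 44 and 17 to 21 days for each of the 45 genes (y axis, z) against the median difference of the 23 other spots of its block and column (x axis, z); the dashed line marks equal differences. Pex6 lies near the line, Acadl and Acad11 lie below it with neighbours that were lower too, and Pex19 lies far below it.

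The mice were also divided at title number 46 into 27 earlier and 13 later ones, a cut made with earlier results in view and named as a batch by no label. The 33-day female and the 40-day male are the later ones among the youngest 10. With this division as a block, the differences were -1.02 z for Acadl, -0.483 z for Pex19, -0.413 z for Acad11 and 0.257 z for Pex6, with adjusted p from 0.0782 to 0.121, and 0% of all genes passed. With the 5 sets of title numbers as a block they were -0.812, -0.399, -0.318 and 0.226 z, with adjusted p from 0.338 to 0.372, and 0% of all genes passed. Among the youngest 10 mice, the 19-day male and 21-day female form 1 title set, and the 40-day male and 33-day female another. Neither of those sets holds mice of both ages, which limits what this fit can show. Among the 8 earlier mice the differences were -1.0, -0.464, -0.386 and 0.254 z, with adjusted p from 0.116 to 0.176. Without the 33-day female or without the 19-day male none of the 45 genes passed, and without the 17-day female or the 21-day female Acadl and Pex19 passed.

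Other members with a small unadjusted p within the youngest mice did not pass: Dld, the E3 subunit shared by several dehydrogenase complexes (0.259 z, adjusted p = 0.207), Idh2 (0.242 z, adjusted p = 0.204), Acadsb, the short/branched-chain acyl-CoA dehydrogenase (0.174 z, adjusted p = 0.159), and Cpt2 (-0.233 z, adjusted p = 0.244). Cpt2 passed with spot position corrected by column (-0.325 z, adjusted p = 0.0422) and with title number as a covariate (-0.305 z, adjusted p = 0.0428). Corrected by block and column it did not pass, and its difference was -0.0921 z, a share of 0.395 of the deposited one. That correction left a share of 0.15 of the difference for Dld, 0.658 for Idh2 and 0.68 for Acadsb. The 5 older mice lay above all of the younger for Idh2 and Acadsb. The share of all genes with sets that do not overlap is not given here. Separation is thus only described for these genes and for Acadl, Pex19 and Pex6. The mice of 17 to 21 and 33 to 44 days ran from 1.18 to 1.5 z and from 1.51 to 1.78 z for Idh2.

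From 17 to 44 to 169 to 194 days none of the 45 genes passed the test and 0% of all genes did. At an unadjusted p under 0.05, Acad11 (-0.344 z, SE 0.145, adjusted p = 0.819) and Acadl (-0.497 z, SE 0.229, adjusted p = 0.819) were lower, 2 of 45, beside 7.24% of all genes. With the later title numbers only (2 of the youngest mice and 3 of 169 to 194 days) these differences took the opposite sign, 0.45 z for Acad11 and 0.8075 z for Acadl. The positive differences with the smallest p were those of Acadsb (0.129 z), Pdhb (0.117 z), Hadh, the short-chain hydroxyacyl-CoA dehydrogenase (0.110 z), and Pex6 (0.124 z). With the title division as a block 4 genes passed, all higher at 169 to 194 days: Acsl5 (0.287 z, SE 0.063, adjusted p = 0.0093), Acadsb (0.227 z, SE 0.058, adjusted p = 0.0225), Dlst, the E2 subunit of 2-oxoglutarate dehydrogenase (0.275 z, SE 0.073, adjusted p = 0.0281), and Hadh (0.233 z, SE 0.066, adjusted p = 0.0423). Beside them stand 3.47% of all genes. Without the block the differences of Acsl5 and Dlst were 0.012 and -0.037 z, and with the later title numbers only that of Acadsb was -0.168 z. With the 5 sets of title numbers as a block none of the 45 passed (0% of all genes).

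Among adults the largest slopes were again those of Acadl and Pex19, and none passed. Over the 30 mice of 169 days or older the count was 0 of 45 (0% of all genes) and none reached an unadjusted p under 0.05 (2.59% of all genes). The lowest adult slopes were those of Acadl (-0.0661 z per 100 days), Pex19 (-0.0319 z) and Fh1 (-0.0304 z), and the highest those of Aco1, the cytosolic aconitase that doubles as an iron sensor (0.0191 z), and Pex3 (0.0159 z). From 169 to 194 to 704 to 743 days none passed (0.014% of all genes) and none had an unadjusted p under 0.05 (2.31%). The differences there were -0.364 z for Acadl, -0.176 z for Pex19, 0.107 z for Aco1 and 0.081 z for Pex3, each with an adjusted p of 0.999.

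None of the 45 genes passed the test between males and females (0% of all genes), and none reached an unadjusted p under 0.05 (1.47% of all genes). The largest differences were those of Mdh1 (0.111 z higher in males, SE 0.0563) and Idh3a (-0.0995 z, SE 0.050), both with an adjusted p of 1.0. The age slopes did not pass a test of difference between the sexes for any of the 45 genes (0% of all genes). Idh3b alone had an unadjusted p under 0.05 there (0.00884, adjusted p = 0.999, with 1.83% of all genes), with the male slope less the female slope at -0.0822 z per 100 days (SE 0.0299). Idh3b in males averaged -1.17 ± 0.376 z at 17 to 44 days and -1.74 ± 0.288 z at 704 to 743 days (SD, n = 5). In females it averaged -1.36 ± 0.222 z and -1.32 ± 0.346 z (SD, n = 5). The males of 704 to 743 days were at -2.09, -1.82, -1.77, -1.72 and -1.29 z and the females at -1.64, -1.62, -1.40, -1.10 and -0.84 z, with overlap.

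The 12 genes with several spots show how far spots of 1 gene went together. For the slope over 40 mice all spots of a gene had the same sign in 4 of 12 genes (Acsl4, Idh3a, Idh3g and Pex19), and within the youngest mice in 3 of 12 (Acsl4, Pex19 and Sucla2). For Dlst, with 4 spots, slopes ran from 0.00 to 0.0113 z per 100 days. For Mdh1, with 3, they ran from -0.0203 to 0.0003 z.

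Of 83 further genes of these and related pathways, 44 were measured, among them succinate dehydrogenase subunits, pyruvate dehydrogenase kinases and peroxisomal transporters. The list also holds genes outside the citrate cycle, fatty acid oxidation and the peroxisome, such as Fasn and Lpl. None of the 44 passed the test for the slope over 40 mice. At an unadjusted p under 0.05, 2 were higher (5.13% of all genes) and 7 lower (10.4%), with a median over the list of -0.0004 z per 100 days. The lowest p were those of Scp2, the sterol carrier and peroxisomal thiolase (-0.0697 z, adjusted p = 0.0537), Dbi, an acyl-CoA binding protein (-0.0542 z, adjusted p = 0.0636), Abcd4 (-0.0326 z, adjusted p = 0.0796) and Slc25a17, a peroxisomal cofactor carrier (-0.0469 z, adjusted p = 0.0928). Far1, which makes the fatty alcohols of ether lipids (0.0193 z), and Amacr, the alpha-methylacyl-CoA racemase (0.0151 z), were the 2 higher ones. Corrected for spot position, the slopes of Abcd4 and Slc25a17 were 0.0283 and 0.0017 z and that of Scp2 -0.0089 z. Within the youngest mice 6 of the 44 passed lower at 33 to 44 days (7.34% of all genes) and 1 higher (1.86%), with a median of -0.0237 z. They were named after their values were seen: Hsd17b4, the peroxisomal bifunctional enzyme (-0.742 z), Scp2 (-0.525 z), Slc25a17 (-0.519 z), Dbi (-0.482 z), Acot7 (-0.421 z) and Abcd4 (-0.414 z) were lower, and Slc27a4, a fatty acid transporter, was higher (0.390 z). After the correction for spot position these were -0.335, 0.0729, -0.0893, -0.211, -0.0527, 0.184 and 0.0992 z.

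Red cell markers moved with age too. The median of their summed level was 4.76 z at 17 to 44 days, 3.39 z and 3.79 z in the next groups and 2.48 z at 704 to 743 days. For the slope over 40 mice 3 of the 4 were lower at an unadjusted p under 0.05, beside 10.4% of all genes. The markers also moved with the division of the youngest mice. Their summed level over 4 measured of 6 (Hba-a1, Hba-a2, Alas2 and Slc4a1) was 5.11 to 6.58 z at 17 to 21 days and 2.62 to 4.40 z at 33 to 44 days. There 3 of the 4 passed lower, beside 7.34% of all genes. These sums and tests used the values as deposited, without the correction for spot position. Hba-a2, an alpha globin, lies in column 12 of table A, as the brightest Acadl spot does, and was 1.26 z lower at 33 to 44 days than at 17 to 21 days. The part of red cells in the slopes and differences of Acadl, Pex19, Acad11 and Pex6 was not tested. Markers of epithelium summed to 1.29 to 2.64 z and 2.34 to 2.77 z in these age sets, of endothelium (2 of 5) to 0.75 to 1.27 z and 0.98 to 1.42 z, and of liver (3 of 5) to 1.74 to 2.41 z and 1.81 to 2.47 z. Those of leukocytes (3 of 6) summed to 1.77 to 3.24 z and 2.68 to 3.44 z there, and to 2.81 to 5.71 z at 704 to 743 days. Of these 8 epithelial, endothelial and liver genes none passed in the youngest mice or for the slope, and of the leukocyte genes Ighm, the heavy chain of IgM, passed higher for the slope. At an unadjusted p under 0.05 the slope was higher for 1 epithelial gene and lower for 1 (15.5% of all genes). In the youngest mice 1 epithelial gene was higher (21% of all genes in either direction). No endothelial or liver gene reached that cut. Of the leukocyte genes 2 were higher for the slope and 1 in the youngest mice.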

How the data were processed

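Values are z scores as deposited by the authors, 1 array per mouse and table. Their unit, score, follows from the deposited columns, each with mean 0 and SD 1. What was done before that scaling is not stated in the labels. Tests were two-sided, with lmFit and eBayes of limma 3.58.1 (R 4.3.3) in each table, Benjamini-Hochberg adjustment over 16896 spots and a threshold of 0.05. Slopes are per 100 days with sex as a term, and steps are contrasts of 8 groups. The fits were tested on simulated data with independent noise at each spot. Those data held no shared movement of a block and column, so they cannot show how the fits fare under it. Alternatives were other normalization and eBayes settings, array weights, spot position (16 blocks of 24 lines and 22 columns), title number, log2 of age and mice left out. Log2 of age with spot position and runs of title numbers as a block were added after seeing the data. Named members were those past the threshold, filled up to 4 per direction by the smallest p. The rule for members and the lists were chosen with earlier results of these data known. Nothing says whether replicates share litters, so p-values measure only the spread between these samples. The 714-day male has a description that names another mouse. An alternative left this male out.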

Additional observations from a re-analysis of the deposited data

Results flagged for a closer look

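Single mice stood apart in 3 of 32 groups of 10 mice tested with Dixon's rule over 8 of the 45 genes, and chance alone marks about 1 group in 20. The highest mouse for Pex3 at 476 to 499 days was at 1.23 z, with the next at 0.99 z. For Pex19 in the same age group the highest was at 1.98 z, with the next at 1.54 z. For Idh3b at 17 to 44 days the highest was at -0.53 z, with the next at -1.12 z.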

How the results depend on the processing

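For the slope over 40 mice, where no gene passed, 2 passed without the dimmest spots, 4 with array weights, 3 with log2 of age, 2 with log2 of age after the correction for spot position, and 2 with the 5 runs of title numbers as a replicate block. The shares of all genes in these fits were 5%, 9.84%, 9.01%, 4.42% and 2.91%, in that order. Leaving out 1 mouse gave 0 to 2. Acadl and Pex19 passed without the male of 43, 40, 194, 476 or 743 days or the female of 33 days, and Acadl alone without the female of 193 or the male of 730 days. From 17 to 44 to 169 to 194 days 4 genes passed with later title numbers as a block (3.47% of all genes). Within the youngest mice the 4 genes became 0 with spot position by block and column, 0 with later title numbers as a block, 0 with the 5 runs as a replicate block and 0 with earlier title numbers only, and 0 to 5 with 1 mouse left out. Later title numbers only could not be fitted there. In the 4 other comparisons the count was 0 under every alternative run. The Pex6 slope was -0.0033 z per 100 days after the correction for spot position, and -0.0018 z with that correction on log2 of age. With later title numbers only, the step to 169 to 194 days was 0.45 z for Acad11 and 0.8075 z for Acadl. The cause of these changes was not tested. The labels do not say that a run of title numbers is a shared batch, and in the other comparisons the replicate block left the count at 0. The number of mice and of arrays limits the precision, and no signal over background was used here.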
